A study of Gallus gallus with 15 samples.

Results

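Abdominal adipose tissue of insulin-neutralized chicks was compared with that of fasted chicks, 5 birds against 5. These 10 arrays were chosen by their labels from the 15 of the series, and the other 5 came from fed birds, whose values are given for orientation. The birds, male ISA915 chicks of a meat-type line, were 16 to 17 days old, and each gave 1 array. Insulin-neutralized birds kept their feed and received porcine serum with antibodies against insulin at 0, 2 and 4 h. Fasted birds had no feed for 5 h and received normal porcine serum, as did the fed birds. The 2 groups therefore differed in feed and in the serum injected, and the effects of these cannot be told apart here. The comparison bears on what a short fast does to fat tissue that neutralizing insulin does not. The birds had no other genetic or drug treatment, and circulating insulin was not analysed here.

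In mammals, insulin promotes the storage of fuel in adipose tissue, where it favours glucose use and fat synthesis and restrains the release of fatty acids. In birds most fatty acids are made in the liver, blood glucose is high, chicken fat tissue is held to respond weakly to insulin, and glucagon is the main lipolytic hormone. Fasting lowers insulin and also removes nutrients, whereas a bird treated with antibodies against insulin goes on eating.

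Levels are GCRMA values on the log2 scale, in which a difference of 1 is a doubling, and levels of different genes are not compared. Of 18612 probe sets that passed the filter on low values, limma called 756 between insulin-neutralized and fasted birds at a Benjamini-Hochberg adjusted p under 0.05, which is 4.06%. Of these, 286 were higher and 470 lower in insulin-neutralized birds. Changes of at least 2-fold were found for 64 of the higher and 192 of the lower probe sets, and the median log2 difference of called probe sets was 0.69 for higher and -0.91 for lower ones. Counted by gene, each through a single probe set, 156 of 9243 (1.69%) were higher and 247 (2.67%) lower in insulin-neutralized birds, and the median log2 difference of all genes was 0.03. Side by side, 55 genes (0.595%) were called between insulin-neutralized and fed birds and 989 (10.7%) between fasted and fed birds, comparisons that share arrays with the present one. The median SE of a log2 difference was 0.18, and its precision is set by how many birds there were.

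**Figure D1:**
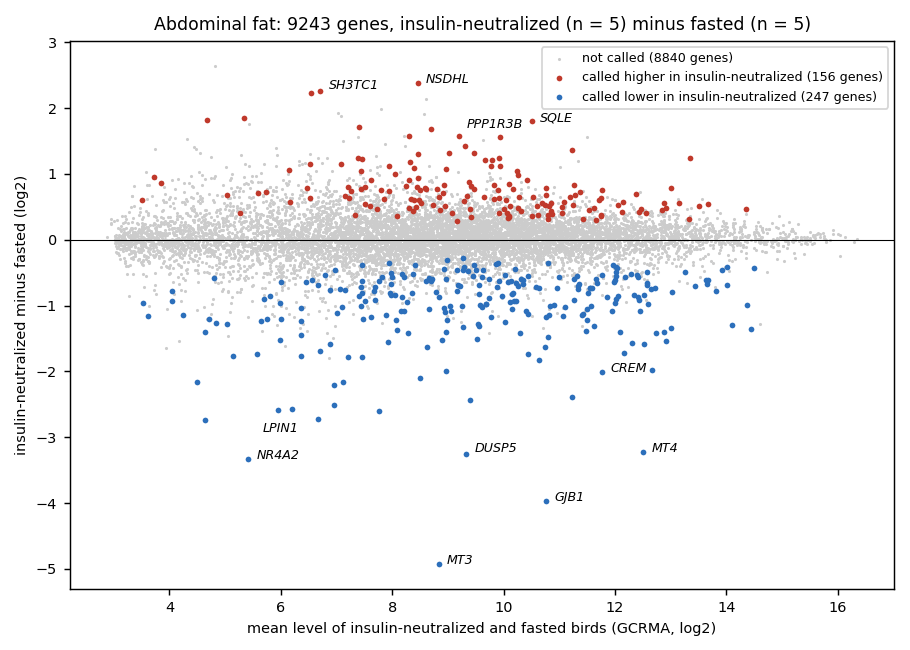
Difference in log2 level between insulin-neutralized and fasted birds (vertical axis) against the mean level of these birds (horizontal axis, GCRMA, log2) for 9243 genes, 1 point each, with called genes in red (higher in insulin-neutralized) and blue (lower). The largest differences lie below 0, down to -4.92 for MT3, while the largest labelled increase is 2.37 for NSDHL.

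The tissue carried adipocyte transcripts at high levels in every bird, with FABP4, an adipocyte fatty acid binding protein, at 16.31 to 16.38 in insulin-neutralized birds, against 16.30 to 16.40 in fasted birds. Of 9 adipocyte markers 2 (22.2%), CIDEC and ACVR1C, were called lower in insulin-neutralized birds, against 2.67% of all genes. The mean level of these markers was 12.70 to 13.20 in insulin-neutralized and 13.08 to 13.47 in fasted birds, and its part was not tested. Liver transcripts stood apart in insulin-neutralized bird 1 and fasted bird 5, where ALB, encoding albumin, reached 15.07 and 15.59. In the other insulin-neutralized birds ALB lay between 5.86 and 11.55, against 3.31 to 8.26 in the other fasted birds. Over the 4 liver markers measured the mean level ranged from 6.91 to 13.24 in insulin-neutralized and from 6.86 to 14.13 in fasted birds, and of this list only APOA1 was called. Without insulin-neutralized bird 1 and fasted bird 5, 335 probe sets were called (83 higher, 252 lower). Insulin-neutralized birds 4 and 5, with liver marker means of 9.54 and 10.20, stayed in that fit. Insulin-neutralized birds 2 and 3 were at 6.91 and 7.37 and the remaining fasted birds at 6.86 to 8.13. The part of liver transcripts was not tested. Fed birds 4 and 5, which enter through the shared spread and the filter on low values, correlated least with the other arrays. Without them, with the filter applied anew, 1513 probe sets were called (671 higher, 842 lower). The 3′ minus 5′ difference of the actin control probe sets, a sign of RNA quality, was 1.21 to 1.52 in insulin-neutralized and 0.94 to 1.18 in fasted birds, without overlap. For the GAPDH control probe sets it was 0.70 to 0.95 in insulin-neutralized and 0.81 to 1.02 in fasted birds, with overlap. The part of RNA quality in the results below was not tested, nor was that of marker ranges for skeletal muscle (5.40 to 7.53 in insulin-neutralized, 5.18 to 5.86 in fasted birds) and for ciliated and lung epithelium (5.63 to 8.74 in insulin-neutralized, 5.93 to 8.75 in fasted birds). None of the 8 fibroblast, 9 macrophage, 8 lymphocyte, 6 erythrocyte, 11 endothelial or 6 mesothelial markers was called. Of 2 pancreas and gut markers FABP6 was called lower. The mean level of the 2 was 5.40 to 5.53 in insulin-neutralized and 5.73 to 6.23 in fasted birds, without overlap, and its part was not tested. In whole tissue, fewer cells of a type and less RNA per cell cannot be told apart.

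Cholesterol synthesis gave 10 genes called higher in insulin-neutralized birds and 0 lower, of 22 measured (45.5%, against 1.69% of all genes called higher). The median log2 difference was 0.79 against 0.03 for all genes. This list and those below were written with earlier results of these data known, so their shares are descriptions only. Without insulin-neutralized bird 1 and fasted bird 5, 7 members were called, and with any 1 bird left out between 8 and 11. The mean level of the list was 9.87 to 10.38 in insulin-neutralized birds, above the 9.17 to 9.48 of fasted birds, and 9.68 to 10.53 in fed birds. NSDHL, a dehydrogenase that helps remove the methyl groups of the sterol ring, had the largest difference. Its level was 9.13, 10.17, 9.33, 10.28 and 9.29 in insulin-neutralized birds 1 to 5, against 6.80, 7.60, 7.74, 7.44 and 6.77 in fasted birds 1 to 5. The groups did not overlap, and the 5.18-fold difference was called (log2 difference 2.37, SE 0.35, adjusted p = 0.00216). SQLE, squalene epoxidase, which acts on squalene, had levels of 10.88, 12.09, 11.16, 11.68 and 11.20 in insulin-neutralized birds, against 9.26, 9.95, 9.94, 10.16 and 8.71 in fasted birds (log2 difference 1.80, SE 0.31, adjusted p = 0.00505). Fasted bird 5 was the lowest for SQLE and fasted bird 1 the next, and every insulin-neutralized bird lay above every fasted one.

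The other called members are given in the order of their steps in the pathway, except that HSD17B7, which acts before DHCR7, comes last. ACAT2, a thiolase that makes acetoacetyl-CoA, and AACS, which makes it from acetoacetate, differed by 0.91 and 1.04 on the log2 scale (adjusted p = 0.0109 and 0.0194). FDPS, farnesyl diphosphate synthase, lay at 9.68 ± 0.54 in insulin-neutralized and 8.36 ± 0.38 in fasted birds (SD, n = 5 each; log2 difference 1.32, SE 0.31, adjusted p = 0.0269). FDFT1, squalene synthase, which commits farnesyl diphosphate to sterols, ranged over 9.78 to 10.31 in insulin-neutralized birds, against 8.10 to 8.91 in fasted birds (log2 difference 1.42, SE 0.23, adjusted p = 0.00311). LSS, which closes the sterol rings, ranged over 9.49 to 10.81 in insulin-neutralized birds, against 8.41 to 9.22 in fasted birds (log2 difference 1.32, SE 0.27, adjusted p = 0.0149). MSMO1, the oxidase that acts before NSDHL, reached 13.97 ± 0.34 in insulin-neutralized and 12.73 ± 0.35 in fasted birds (adjusted p = 0.0116). DHCR7, which forms cholesterol from 7-dehydrocholesterol, had levels of 11.49, 12.47, 11.66, 12.04 and 11.92 in insulin-neutralized birds, against 10.42, 10.36, 10.79, 11.16 and 10.03 in fasted birds (log2 difference 1.37, SE 0.23, adjusted p = 0.00474). HSD17B7, a ketosteroid reductase of the same part of the pathway as MSMO1 and NSDHL, overlapped between the groups (10.08 to 10.74 in insulin-neutralized birds, against 8.50 to 10.41 in fasted birds, adjusted p = 0.047). The calls of FDPS and HSD17B7 were weak. That of FDPS was lost on leaving out insulin-neutralized bird 2, 4 or 5 or fasted bird 1, 2 or 5 (highest adjusted p 0.0684), and that of HSD17B7 on leaving out any insulin-neutralized bird, any fasted bird but 3 or any fed bird but 5 (highest adjusted p 0.113). For LSS, 2 of 3 probe sets were called, and for ACAT2 and HSD17B7 1 of 2. The AACS call was lost without insulin-neutralized bird 1 and fasted bird 5 together (adjusted p = 0.0673).

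The members that were not called included entry and control points of the pathway. HMGCS1, which makes HMG-CoA, differed by 0.21 (adjusted p = 0.842). SREBF2, the transcription factor that drives sterol genes, differed by 0.20 (adjusted p = 0.628). INSIG1, which holds that factor's precursor in the endoplasmic reticulum, varied widely in fasted birds, over 13.21 to 14.82, with insulin-neutralized birds at 14.37 to 14.79 (adjusted p = 0.475). STARD4, which carries cholesterol between membranes, was at 10.24 ± 0.22 in insulin-neutralized and 9.28 ± 0.59 in fasted birds (adjusted p = 0.0874). The other of its 2 probe sets was called higher. IDI2, an isopentenyl diphosphate isomerase outside the list, was among the 15 genes with the largest increase (log2 difference 1.56, SE 0.35, adjusted p = 0.0239), a call that was lost on leaving out insulin-neutralized bird 2 or 4 or fasted bird 1 or 4 (highest adjusted p 0.0637).

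**Figure D2:**
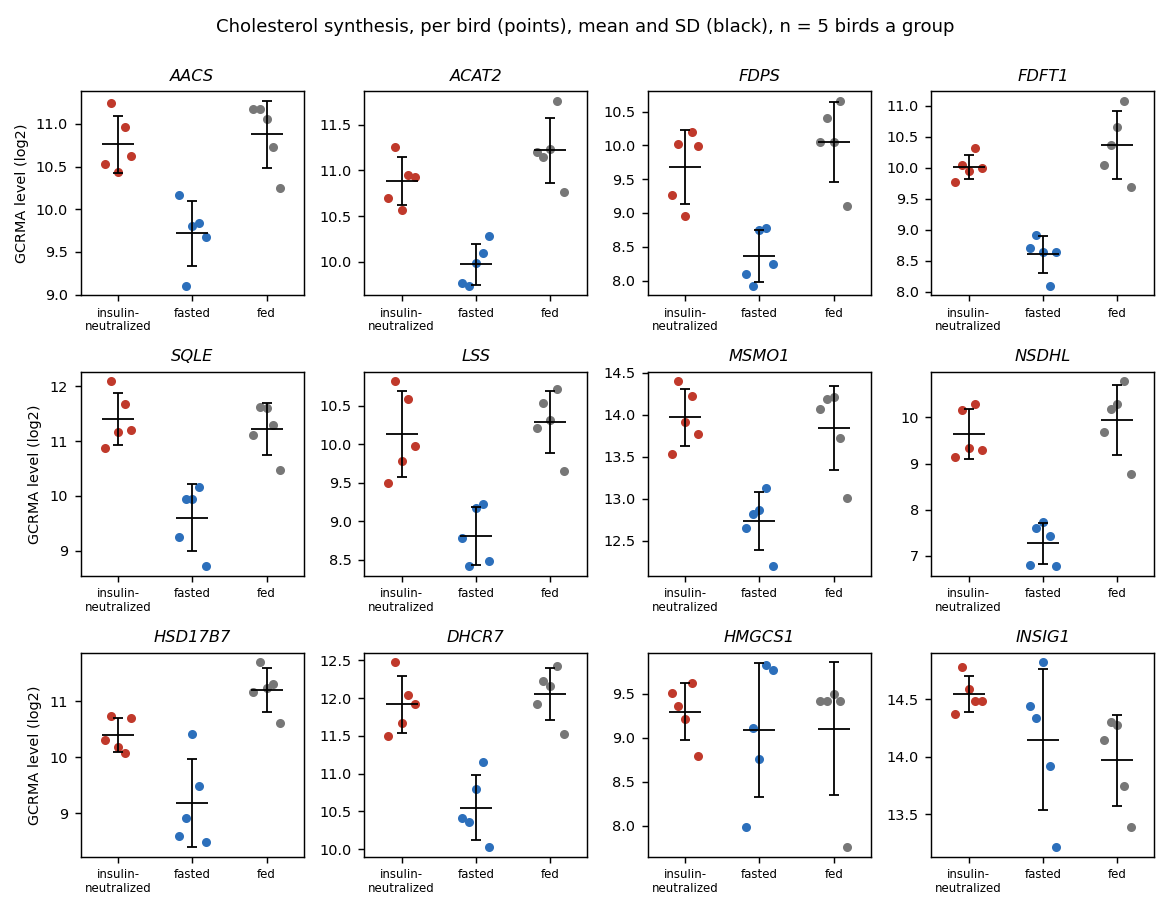
Levels of 12 cholesterol synthesis genes (vertical axes, GCRMA, log2) in insulin-neutralized (red), fasted (blue) and fed (grey) birds, 1 point per bird, with the mean and SD of 5 birds in black. In 9 of the 10 called genes (all but HSD17B7) every insulin-neutralized bird lay above every fasted bird, whereas HMGCS1 and INSIG1, in the last 2 panels, overlapped. Such separation was common among called probe sets, at 667 of 756, and was found in 8.34% of all kept.

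Of 12 fatty acid synthesis genes measured, 1 was called higher and 1 lower (16.7%, against 4.36% of all genes), and the median log2 difference was 0.23. FASN, fatty acid synthase, lay at 13.67 ± 0.12 in insulin-neutralized and 13.35 ± 0.40 in fasted birds (adjusted p = 0.302), and ACLY and ACACA, which supply acetyl-CoA and malonyl-CoA for it, differed by 0.34 and 0.52 (adjusted p = 0.226 and 0.3). ME1, malic enzyme, a source of NADPH, was higher, at 10.60 ± 0.16 in insulin-neutralized and 9.95 ± 0.20 in fasted birds (adjusted p = 0.0412). ACACB, whose malonyl-CoA restrains fatty acid entry into mitochondria, was lower, at 5.52 to 6.82 in insulin-neutralized birds, against 7.46 to 8.40 in fasted birds (log2 difference -1.78, SE 0.39, adjusted p = 0.0214), 3.42-fold apart without overlap. MLYCD, which breaks malonyl-CoA down, differed by 0.47 (adjusted p = 0.17). Of 12 elongases and desaturases only ELOVL1 was called, lower with a log2 difference of -0.60, and ELOVL6 differed by 0.65 (adjusted p = 0.0546). For ELOVL6, 2 of 3 probe sets, including this one, were not called, and the remaining one was called higher. The ME1 call was lost on leaving out any insulin-neutralized bird, any fasted bird but 3 or fed bird 1 (highest adjusted p 0.102), that of ACACB on leaving out insulin-neutralized bird 1 or 3 or fasted bird 5 (highest adjusted p 0.0575) and that of ELOVL1 on leaving out any insulin-neutralized bird but 2 or fasted bird 2, 4 or 5 (highest adjusted p 0.0783).

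Genes of triacylglycerol synthesis and storage were lower where they were called, 14.3% of 14 and 22.2% of 9, against 2.67% of all genes. LPIN1, a phosphatidate phosphatase and coactivator, was 6.57-fold lower in insulin-neutralized birds. Its level was 4.80, 5.91, 5.24, 4.83 and 5.77 in insulin-neutralized birds 1 to 5, against 7.96, 8.05, 8.01, 8.53 and 7.57 in fasted birds 1 to 5. The groups lay more than 1 log2 unit apart (log2 difference -2.71, SE 0.30, adjusted p = 2.05e-04), and fed birds were lower still at 4.11 ± 0.59. The other called member of the 14 was AGPAT2, an acyltransferase, at 8.71 ± 0.06 in insulin-neutralized and 9.15 ± 0.11 in fasted birds (adjusted p = 0.0483). DGAT2, the last acyltransferase, was at 8.46 ± 0.28 in insulin-neutralized, 7.68 ± 0.75 in fasted and 11.07 ± 0.31 in fed birds. It did not pass the test between insulin-neutralized and fasted birds (adjusted p = 0.17), whereas it was lower in insulin-neutralized than in fed birds (log2 difference -2.61, adjusted p = 0.00367). Of 9 genes of lipid droplets and lipolysis, PLIN2, a droplet coat protein, and CIDEC, which enlarges droplets, were lower. PLIN2 had levels of 11.38, 11.13, 11.49, 11.42 and 11.51 in insulin-neutralized birds, against 12.92, 13.99, 11.54, 12.71 and 12.77 in fasted birds (log2 difference -1.40, SE 0.31, adjusted p = 0.0223), and the fasted birds spread over a wider range than the insulin-neutralized birds. CIDEC overlapped, at 11.62 to 12.42 in insulin-neutralized birds, against 12.39 to 13.47 in fasted birds (adjusted p = 0.0356). PNPLA2, the first lipase of lipolysis, differed by -0.49 (adjusted p = 0.0831) and LPL, lipoprotein lipase, by 0.24 (adjusted p = 0.428). The AGPAT2 call was lost on leaving out any insulin-neutralized bird, any fasted bird or fed bird 2 or 3 (highest adjusted p 0.115), that of PLIN2 on leaving out insulin-neutralized bird 1 or 2 (highest adjusted p 0.0518) and that of CIDEC on leaving out insulin-neutralized bird 3, 4 or 5 or any fasted bird but 2 (highest adjusted p 0.0909). Without insulin-neutralized bird 1 and fasted bird 5, none of the droplet genes was called.

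Of 26 genes of fatty acid handling in peroxisomes, 1 was called higher and 3 lower in insulin-neutralized birds (15.4%, against 4.36% of all genes). ABCD2, a peroxisomal importer of very long chain acyl-CoA, had levels of 9.89, 9.87, 9.46, 9.20 and 9.38 in insulin-neutralized birds, against 10.91, 10.99, 11.54, 11.59 and 11.46 in fasted birds. Insulin-neutralized birds were 3.34-fold lower (log2 difference -1.74, SE 0.19, adjusted p = 2.55e-04), and fed birds lay at 8.97 ± 0.32. CROT, which makes carnitine esters of shortened acyl-CoA for export from peroxisomes, was lower, at 11.35 ± 0.11 in insulin-neutralized and 12.004 ± 0.15 in fasted birds (adjusted p = 0.00882). NUDT12, a peroxisomal NADH diphosphatase, ran the other way at 5.48 to 6.83 in insulin-neutralized birds, against 3.79 to 4.90 in fasted birds (log2 difference 1.85, SE 0.31, adjusted p = 0.00427). The third lower gene was ACBD5, a peroxisomal membrane protein that binds acyl-CoA, whose call was lost on leaving out any insulin-neutralized bird but 2, any fasted bird but 2 or fed bird 1, 2 or 3 (highest adjusted p 0.119). ACSL4, an acyl-CoA synthetase that prefers arachidonic acid, was lower, at 10.65 to 11.15 in insulin-neutralized birds, against 11.74 to 12.74 in fasted birds (log2 difference -1.32, SE 0.19, adjusted p = 0.0016). FABP6, known as a bile acid binding protein of the gut, was lower, at 7.32 ± 0.11 in insulin-neutralized and 8.46 ± 0.44 in fasted birds (adjusted p = 0.00395). For ABCD2, 1 of 2 probe sets was called, and for ACBD5 3 of 4.

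Of 19 genes of mitochondrial fatty acid oxidation 1 (5.26%) was called lower, against 2.67% of all genes. It was HADHB, a subunit of the trifunctional protein (log2 difference -0.42). Its call was lost on leaving out any insulin-neutralized bird, any fasted bird but 3 or fed bird 1 or 3 (highest adjusted p 0.107). CPT1A, the gate of fatty acid entry, was near the lowest value of the table (2.18) in insulin-neutralized birds, at 3.14 ± 0.41 in insulin-neutralized and 4.14 ± 0.89 in fasted birds (adjusted p = 0.136). IDH1, the cytosolic isocitrate dehydrogenase, was the only called gene of 15 listed with the citric acid cycle, at 10.91 to 11.14 in insulin-neutralized birds, against 11.59 to 11.89 in fasted birds (log2 difference -0.67, SE 0.09, adjusted p = 0.0011). Of 14 nuclear receptor and thyroid hormone genes, 2 (14.3%) were lower. NR1H3, the oxysterol receptor LXR alpha, had levels of 11.74, 11.77, 11.53, 11.32 and 11.78 in insulin-neutralized birds, against 12.38, 12.69, 12.25, 12.84 and 12.26 in fasted birds (log2 difference -0.86, SE 0.14, adjusted p = 0.00387), and PPARD, a fatty acid receptor, lay at 7.65 ± 0.21 in insulin-neutralized and 8.32 ± 0.25 in fasted birds (adjusted p = 0.0197, and 0.0728 without insulin-neutralized bird 1 and fasted bird 5 together). PPARG, the receptor that directs adipocyte formation, differed by 0.43 (adjusted p = 0.283). The coactivator PPARGC1A ranged over 4.90 to 5.60 in insulin-neutralized birds, against 2.83 to 5.01 in fasted birds (adjusted p = 0.0703). APOA1, the main protein of high density lipoprotein, was 2.55-fold lower, at 13.35 to 14.28 in insulin-neutralized birds, against 14.89 to 15.24 in fasted birds (log2 difference -1.35, SE 0.19, adjusted p = 0.00174), also in the 2 birds with the highest ALB.

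Few genes of glycogen and glucose use were called, each higher in insulin-neutralized birds, and the called pyruvate dehydrogenase kinases were lower. The shares called were 12.5% in glycogen metabolism, 4.76% in glycolysis and 25% in the pentose phosphate pathway, against 1.69% of all genes called higher. For pyruvate dehydrogenase and its kinases the share was 22.2%, against 2.67% called lower. PPP1R3B, a subunit that brings protein phosphatase 1 to glycogen and favours glycogen synthesis, had levels of 9.94, 9.98, 10.07, 9.63 and 10.27 in insulin-neutralized birds, against 8.68, 8.40, 8.26, 8.29 and 8.42 in fasted birds. Insulin-neutralized birds were 2.97-fold higher (log2 difference 1.57, SE 0.13, adjusted p = 7.18e-05). PPP1R3C, a subunit of the same kind, lay at 7.10 ± 0.42 in insulin-neutralized and 5.95 ± 0.40 in fasted birds (adjusted p = 0.0224), and these were the 2 called of 16 glycogen genes. HK1, hexokinase 1, was the only called gene of 21 in glycolysis, at 10.13 ± 0.14 in insulin-neutralized and 9.51 ± 0.19 in fasted birds (adjusted p = 0.0307), and RPIA, ribose 5-phosphate isomerase, the only one of 4 in the pentose phosphate pathway, at 12.32 ± 0.09 in insulin-neutralized and 11.91 ± 0.13 in fasted birds (adjusted p = 0.0151). PDK4, a kinase that switches pyruvate dehydrogenase off and so spares glucose, had levels of 14.09, 13.64, 13.17, 13.56 and 12.81 in insulin-neutralized birds, against 14.69, 14.78, 14.77, 14.998 and 14.49 in fasted birds. The groups did not overlap, and insulin-neutralized birds were 2.45-fold lower (log2 difference -1.29, SE 0.33, adjusted p = 0.042). PDK3, of the same family, lay at 9.28 ± 0.14 in insulin-neutralized and 9.66 ± 0.08 in fasted birds (adjusted p = 0.0291), so that 2 of 9 genes of the complex and its kinases were lower. The PDK4 call was lost on leaving out any insulin-neutralized bird but 1, any fasted bird or fed bird 1, 2 or 3 (highest adjusted p 0.104), that of PDK3 on leaving out any insulin-neutralized bird but 5 or any fasted bird but 4 (highest adjusted p 0.0801), that of HK1 on leaving out any insulin-neutralized bird but 2 or any fasted bird but 3 (highest adjusted p 0.0776) and that of PPP1R3C on leaving out insulin-neutralized bird 1 or 5 or fasted bird 2 or 5 (highest adjusted p 0.06). Of the called genes, HK1 had 1 of 3 probe sets called and PPP1R3C 1 of 2. The RPIA call was lost without insulin-neutralized bird 1 and fasted bird 5 together (adjusted p = 0.0783).

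Metallothioneins, small proteins that bind zinc and copper, gave the largest decrease of all named genes. MT3 had levels of 6.89, 5.71, 5.94, 5.91 and 7.40 in insulin-neutralized birds 1 to 5, against 10.44, 13.10, 10.68, 11.44 and 10.79 in fasted birds 1 to 5. Insulin-neutralized birds were 30.2-fold lower (log2 difference -4.92, SE 0.59, adjusted p = 4.69e-04), and the lowest fasted bird was more than 2 log2 units above the highest insulin-neutralized one. MT4 had levels of 11.03, 10.38, 10.68, 10.67 and 11.67 in insulin-neutralized birds, against 13.72, 14.81, 13.92, 14.07 and 14.05 in fasted birds, 9.37-fold lower in insulin-neutralized birds (log2 difference -3.23, SE 0.39, adjusted p = 5.03e-04). SLC30A1, which exports zinc from the cell and like metallothionein is induced by it, had levels of 8.57, 8.99, 8.57, 8.56 and 9.12 in insulin-neutralized birds, against 9.95, 10.44, 10.54, 10.63 and 9.79 in fasted birds (log2 difference -1.51, SE 0.19, adjusted p = 5.71e-04). Fed birds lay close to the insulin-neutralized ones for the 3 genes, at 6.91 ± 1.14, 11.16 ± 0.94 and 8.31 ± 0.25. Of 15 genes of metallothionein and zinc transport 26.7% were called, against 4.36% of all genes. MT3, MT4 and SLC30A1 were lower with any bird left out and SLC30A5, a zinc transporter of the secretory pathway, was higher by 0.37. The SLC30A5 call was lost on leaving out any insulin-neutralized bird or fasted bird 4 or 5 (highest adjusted p 0.0841), and its other probe set had the opposite sign.

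GJB1, the gap junction protein connexin 32, showed the second largest decrease. Its level was 8.36, 9.63, 8.52, 8.61 and 8.77 in insulin-neutralized birds 1 to 5, against 12.35, 13.12, 12.82, 13.17 and 12.25 in fasted birds 1 to 5, a 15.6-fold difference without overlap (log2 difference -3.96, SE 0.34, adjusted p = 7.18e-05). Fed birds lay at 7.33 ± 0.73. The other 4 connexins measured were not called.

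Immediate early genes are transcribed within minutes of a hormone or growth factor signal. In a list of 16 genes, which also held orphan receptors and partners such as NAB1, 8 were called lower and 0 higher in insulin-neutralized birds. This was 50%, against 2.67% of all genes called lower, and the median log2 difference was -0.61. The count was 8 or 9 with any 1 bird left out and 8 without insulin-neutralized bird 1 and fasted bird 5. The mean level of the list was 10.62 to 10.81 in insulin-neutralized birds and 11.46 to 11.96 in fasted birds, without overlap. NR4A2, an orphan nuclear receptor induced by cAMP in many tissues, had levels of 3.91, 3.74, 3.71, 3.74 and 3.65 in insulin-neutralized birds 1 to 5, against 5.82, 6.38, 8.79, 8.89 and 5.52 in fasted birds 1 to 5. Fasted birds varied by several log2 units, whereas insulin-neutralized birds lay close together, and the groups did not overlap (log2 difference -3.33, SE 0.57, adjusted p = 0.00463). Insulin-neutralized birds 2 and 4 and fed bird 5 shared the same value, 3.74, and fed birds lay at 3.79 ± 0.32. These levels were close to the lowest that the probe set showed, so the narrow range and the size of the NR4A2 difference give only bounds. EGR1, a zinc finger factor, had levels of 11.95, 11.91, 12.001, 11.27 and 11.50 in insulin-neutralized birds, against 12.71, 13.14, 13.71, 13.64 and 13.35 in fasted birds (log2 difference -1.58, SE 0.23, adjusted p = 0.00187). NAB1, which represses through EGR1, lay at 5.15 ± 0.06 in insulin-neutralized and 6.36 ± 0.33 in fasted birds (adjusted p = 1.75e-04), and its insulin-neutralized level was close to the lowest that its probe set showed.

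MAFF, a small basic leucine zipper factor, ranged over 7.56 to 8.45 in insulin-neutralized birds, against 9.46 to 10.53 in fasted birds (log2 difference -1.99, SE 0.21, adjusted p = 1.82e-04). MYC, the growth regulator, ranged over 9.76 to 10.10 in insulin-neutralized birds, against 10.86 to 11.29 in fasted birds (log2 difference -1.13, SE 0.15, adjusted p = 7.96e-04). The matricellular genes CYR61 and CCN2 were lower, with log2 differences of -1.56 and -1.54 (adjusted p = 2.97e-04 and 0.00187), and BTG2, an antiproliferative gene, was lower with one of -0.74 (adjusted p = 0.00555). These 8 calls held with each single bird left out. For BTG2, 1 of 2 probe sets was called.

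In a list of 30 genes of MAP kinases, their phosphatases and other signal regulators such as RGS1, 2 were lower (6.67%, against 2.67% of all genes) and 0 higher in insulin-neutralized birds. DUSP5, a nuclear phosphatase of the MAP kinase ERK, had levels of 7.57, 8.68, 7.63, 6.59 and 8.07 in insulin-neutralized birds 1 to 5, against 11.11, 10.50, 10.89, 11.38 and 10.91 in fasted birds 1 to 5. The 9.51-fold difference was without overlap (log2 difference -3.25, SE 0.33, adjusted p = 1.68e-04), and fed birds lay at 7.72 ± 0.49. RGS1, the other called member, shortens signals of G protein coupled receptors and is no MAP kinase gene, so the share called is not one of MAP kinase genes alone. Its levels were 3.98, 4.83, 5.16, 4.47 and 4.90 in insulin-neutralized birds, against 6.77, 7.40, 7.64, 7.70 and 6.73 in fasted birds (log2 difference -2.58, SE 0.25, adjusted p = 1.53e-04). The list's median log2 difference was -0.15, and the count of lower genes was 5 without fed bird 4. DUSP6, a cytoplasmic ERK phosphatase, lay at 11.13 ± 0.12 in insulin-neutralized and 11.79 ± 0.14 in fasted birds (adjusted p = 0.0579), and DUSP1 at 11.44 ± 0.40 in insulin-neutralized and 11.97 ± 0.31 in fasted birds (adjusted p = 0.246).

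Of 30 genes of glucagon and cAMP signalling, 4 were lower (13.3%, against 2.67% of all genes) and 0 higher, and all 4 degrade cAMP or act downstream of it. CREM, a transcription factor with isoforms that repress cAMP-responsive genes, had levels of 10.67, 10.89, 10.60, 10.69 and 10.95 in insulin-neutralized birds 1 to 5, against 12.15, 12.70, 13.01, 13.52 and 12.47 in fasted birds 1 to 5, 4.02-fold lower in insulin-neutralized birds (log2 difference -2.01, SE 0.27, adjusted p = 0.00121). Of its 3 probe sets 2 were called. PDE4B and PDE7B, which degrade cAMP, lay at 7.45 ± 0.37 in insulin-neutralized and 8.67 ± 0.46 in fasted birds and at 5.02 ± 0.19 in insulin-neutralized and 6.26 ± 0.66 in fasted birds, with adjusted p = 0.00931 and 0.0219. SIK2, a kinase inhibited through cAMP, was lower with overlap between the groups (log2 difference -0.53, in 1 of 3 probe sets). The PDE7B call was lost on leaving out insulin-neutralized bird 3 or 5 or fasted bird 4 or 5 (highest adjusted p 0.0584) and that of SIK2 on leaving out any insulin-neutralized bird, any fasted bird but 2 or fed bird 1 or 3 (highest adjusted p 0.0961), and without insulin-neutralized bird 1 and fasted bird 5 only 1 gene of the list was called, with PDE4B at an adjusted p of 0.0541. PDE3B, the phosphodiesterase through which insulin restrains lipolysis in mammals, differed by -0.55 (adjusted p = 0.0946). GCG, the proglucagon gene, was at 8.36 ± 0.22 in insulin-neutralized, 7.68 ± 0.24 in fasted and 6.82 ± 0.71 in fed birds and did not pass the test between insulin-neutralized and fasted birds, though these did not overlap (adjusted p = 0.195). GCGR, the glucagon receptor, was at 7.42 ± 0.52 in insulin-neutralized, 8.21 ± 0.49 in fasted and 8.89 ± 0.50 in fed birds (adjusted p = 0.172).

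Known glucocorticoid targets gave 5 lower genes of 12 (41.7%, against 2.67% of all genes), namely MT3, MT4, PDK4, SGK1 and ERRFI1. The first 3 of these stand in other lists as well. SGK1, a serum and glucocorticoid induced kinase, lay at 13.70 ± 0.12 in insulin-neutralized and 14.15 ± 0.03 in fasted birds (adjusted p = 0.00773), with 1 of 2 probe sets called. FKBP5, which binds the receptor's chaperone and is a common marker of its activity, was at 11.13 ± 0.35 in insulin-neutralized, 11.29 ± 0.27 in fasted and 10.01 ± 0.56 in fed birds (adjusted p = 0.805 for insulin-neutralized minus fasted). The ERRFI1 call (-0.82 on the log2 scale) was lost on leaving out any insulin-neutralized bird but 4 or fasted bird 2, 3 or 4 (highest adjusted p 0.0908), and the count of 5 was 3 without insulin-neutralized bird 1 and fasted bird 5. Of 15 clock genes BHLHE40, a repressor in the clock, was lower, at 7.04 ± 0.44 in insulin-neutralized and 7.97 ± 0.18 in fasted birds (adjusted p = 0.015, and 0.0623 without those birds). Of its 3 probe sets 1 was called and 1 had the opposite sign.

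**Figure D3:**
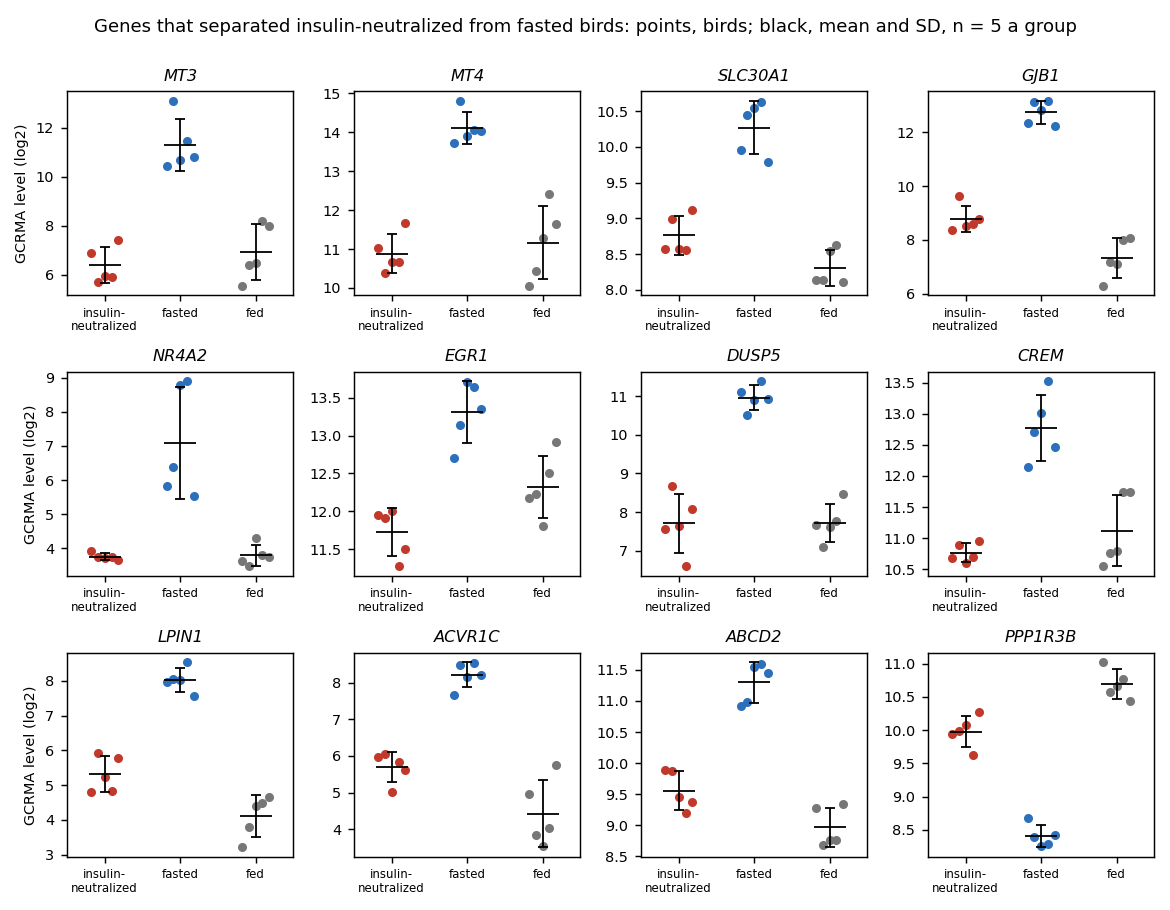
Levels of 12 genes (vertical axes, GCRMA, log2) in insulin-neutralized (red), fasted (blue) and fed (grey) birds, 1 point per bird, with the mean and SD of 5 birds in black. The genes were picked from those in which insulin-neutralized and fasted birds did not overlap. In insulin-neutralized birds 11 of them were lower and PPP1R3B was higher.

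Genes of adipocyte formation gave 5 lower and 0 higher of 40 (12.5%, against 2.67% of all genes called lower). ACVR1C, the activin receptor ALK7, which in mouse fat restrains lipolysis, had levels of 5.96, 6.07, 5.02, 5.84 and 5.60 in insulin-neutralized birds 1 to 5, against 7.67, 8.48, 8.16, 8.53 and 8.22 in fasted birds 1 to 5. Insulin-neutralized birds were 5.71-fold lower (log2 difference -2.51, SE 0.36, adjusted p = 0.00186), and fed birds lay at 4.43 ± 0.92. BMP2, a bone morphogenetic protein, ranged over 6.35 to 6.57 in insulin-neutralized birds, against 7.03 to 7.997 in fasted birds (log2 difference -1.11, SE 0.17, adjusted p = 0.00213). KLF11 and KLF3, Krüppel-like transcription factors, lay at 9.39 ± 0.08 in insulin-neutralized and 10.64 ± 0.27 in fasted birds and at 8.86 ± 0.26 in insulin-neutralized and 9.56 ± 0.16 in fasted birds, with adjusted p = 0.00155 and 0.00712. TCF7L2, an effector of Wnt signalling, overlapped between the groups (adjusted p = 0.0474). Of its 5 probe sets 1 was called and 1 had the opposite sign, and the call was lost on leaving out any insulin-neutralized bird but 2, any fasted bird but 2 or fed bird 1, 2 or 4 (highest adjusted p 0.119). CEBPA, a factor of mature adipocytes, differed by 0.72 (adjusted p = 0.234).

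Of 28 genes of insulin and IGF signalling, 2 were higher and 2 lower (14.3%, against 4.36% of all genes). PIK3R1, the main regulatory subunit of phosphoinositide 3-kinase, had levels of 13.09, 12.73, 12.52, 12.69 and 12.62 in insulin-neutralized birds, against 12.27, 11.87, 11.87, 12.17 and 11.96 in fasted birds (log2 difference 0.70, SE 0.14, adjusted p = 0.0141). PIK3R3, of the same family, was higher by 0.74 (adjusted p = 0.0445). TRIB2, a pseudokinase that binds AKT, lay at 11.11 ± 0.15 in insulin-neutralized and 11.92 ± 0.18 in fasted birds (adjusted p = 0.00155), and FOXO1, a transcription factor held inactive by insulin, at 10.15 ± 0.15 in insulin-neutralized and 10.71 ± 0.31 in fasted birds (adjusted p = 0.0445), with overlap. INSR, the insulin receptor, differed by -0.08 (adjusted p = 0.88) and IRS2, its substrate, by -0.07 (adjusted p = 0.913). The PIK3R3 call, in 1 of 3 probe sets, was lost on leaving out any insulin-neutralized bird, any fasted bird but 3 or fed bird 1, 2 or 3 (highest adjusted p 0.103) and that of FOXO1 on leaving out any insulin-neutralized bird, any fasted bird but 2 or fed bird 1, 2 or 3 (highest adjusted p 0.104). The PIK3R1 call was lost without insulin-neutralized bird 1 and fasted bird 5 together (adjusted p = 0.0759). AGTR1, the angiotensin receptor, was lower, with levels of 10.96, 10.66, 10.25, 10.54 and 10.56 in insulin-neutralized birds, against 11.46, 11.97, 11.37, 11.49 and 11.78 in fasted birds (log2 difference -1.02, SE 0.19, adjusted p = 0.00929).

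Of 49 cytokine, chemokine and interferon genes, 6 were lower and 1 higher in insulin-neutralized birds (14.3%, against 4.36% of all genes). The list's median log2 difference was -0.30. The count of lower genes was 3 to 8 with a bird left out and 2 without insulin-neutralized bird 1 and fasted bird 5. IFNAR1, which forms part of the receptor for type I interferons, had levels of 10.64, 10.64, 10.50, 10.46 and 10.22 in insulin-neutralized birds, against 11.72, 11.66, 11.39, 11.87 and 11.58 in fasted birds (log2 difference -1.15, SE 0.11, adjusted p = 1.46e-04). IL10RB, a subunit shared by receptors of the interleukin 10 family, ranged over 9.48 to 9.56 in insulin-neutralized birds, against 9.97 to 10.46 in fasted birds (log2 difference -0.71, SE 0.09, adjusted p = 0.001). CXCL12, a chemokine, was lower (log2 difference -0.74, adjusted p = 0.0116, in 1 of 3 probe sets), whereas CXCR4, its receptor, was higher, at 8.69 to 10.23 in insulin-neutralized birds, against 7.21 to 8.72 in fasted birds, with overlap (log2 difference 1.69, SE 0.30, adjusted p = 0.00691). CISH, a suppressor of cytokine signalling, differed by -1.04, TNFSF15, a tumour necrosis factor ligand, by -1.59, and TLR4, the receptor for bacterial lipopolysaccharide, by -1.21. Insulin-neutralized birds 1, 3 and 4 shared the same TLR4 value, 4.20, so the size of the TLR4 difference gives only a bound. The CISH call was lost on leaving out any insulin-neutralized bird but 2, any fasted bird but 3 or fed bird 1 (highest adjusted p 0.0971), that of TNFSF15 on leaving out insulin-neutralized bird 1, 2 or 5 or any fasted bird but 1 (highest adjusted p 0.0772) and that of TLR4 on leaving out any insulin-neutralized bird or fasted bird 1, 2 or 4 (highest adjusted p 0.0876). The calls of CXCL12 and CXCR4 were lost without insulin-neutralized bird 1 and fasted bird 5 together (adjusted p = 0.0602 and 0.0506).

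Protein breakdown by the proteasome gave few calls, 1 of 32 proteasome genes (3.12%) and 2 of 61 ubiquitin ligase genes (3.28%), all lower in insulin-neutralized birds and near the 2.67% of all genes called lower. FBXO8, an F-box protein, had levels of 9.95, 10.03, 9.40, 9.62 and 9.77 in insulin-neutralized birds, against 10.43, 10.59, 10.70, 10.97 and 10.70 in fasted birds (log2 difference -0.92, SE 0.14, adjusted p = 0.00277). PSME4, an activator of the proteasome, ranged over 12.01 to 12.64 in insulin-neutralized birds, against 12.91 to 13.16 in fasted birds (log2 difference -0.75, SE 0.16, adjusted p = 0.0175) and was the called proteasome gene. MDM2, the ubiquitin ligase of p53, lay at 9.60 ± 0.02 in insulin-neutralized and 10.23 ± 0.21 in fasted birds (adjusted p = 0.00957), and was the other called ubiquitin ligase gene beside FBXO8. Of the 2 probe sets of MDM2, 1 was called. BNIP3, a mitophagy receptor, ranged over 12.11 to 12.35 in insulin-neutralized birds, against 12.80 to 13.06 in fasted birds (log2 difference -0.69, SE 0.12, adjusted p = 0.00429), and UVRAG, which acts in autophagosome maturation, over 9.68 to 10.08 in insulin-neutralized birds, against 10.37 to 10.59 in fasted birds (adjusted p = 0.00916, in 1 of 2 probe sets). The calls of MDM2 and UVRAG were lost without insulin-neutralized bird 1 and fasted bird 5 together (adjusted p = 0.057 and 0.0662).

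In all, 7 of 53 autophagy and lysosome genes were lower (13.2%, against 2.67% of all genes) and 0 higher. The other 5 were GABARAPL1, MAP1LC3A, SQSTM1, ATP6V0A1 and CTSV, of which the first 3 act in or are carried by autophagosomes and the others in lysosomes. SQSTM1 lay at 10.81 ± 0.26 in insulin-neutralized and 11.72 ± 0.20 in fasted birds (adjusted p = 0.0284). CTSV, a cathepsin, ranged over 14.20 to 14.37 in insulin-neutralized birds, against 14.49 to 14.89 in fasted birds (log2 difference -0.44, SE 0.10, adjusted p = 0.0222). GABARAPL1 overlapped between the groups, and 1 of the 3 probe sets of ATP6V0A1 had the opposite sign. The list's count of 7 was 2 without fasted bird 4 and 1 without insulin-neutralized bird 1 and fasted bird 5. Calls were lost for SQSTM1 on leaving out insulin-neutralized bird 1, 2 or 4 or fasted bird 3, 4 or 5 (highest adjusted p 0.0724), for CTSV on leaving out insulin-neutralized bird 3, 4 or 5 or fasted bird 4 (highest adjusted p 0.0599), for MAP1LC3A on leaving out any insulin-neutralized bird, any fasted bird but 1 or fed bird 3 (highest adjusted p 0.0988), for GABARAPL1 on leaving out any insulin-neutralized bird but 5 or fasted bird 3, 4 or 5 (highest adjusted p 0.0716) and for ATP6V0A1 on leaving out fasted bird 4 (highest adjusted p 0.0511).

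Sphingolipid genes gave 3 lower of 17 (17.6%) and apoptosis genes 2 of 27 (7.41%), against 2.67% of all genes. SGPL1, the lyase that degrades sphingosine phosphate, had levels of 11.25, 11.21, 10.81, 10.94 and 11.12 in insulin-neutralized birds, against 11.94, 12.30, 11.99, 12.48 and 11.64 in fasted birds (log2 difference -1.004, SE 0.15, adjusted p = 0.00262). UGCG, which makes glucosylceramide, was lower (log2 difference -1.05, adjusted p = 0.0219, in 2 of 3 probe sets), and CERS6, a ceramide synthase, was close to the floor of the values. The UGCG call was lost on leaving out insulin-neutralized bird 2 or 5 (highest adjusted p 0.0508) and that of CERS6 on leaving out any insulin-neutralized bird but 2 or fasted bird 1 or 5 (highest adjusted p 0.0595). Of 27 apoptosis genes, MCL1, which protects cells, was lower, at 12.11 ± 0.22 in insulin-neutralized and 13.09 ± 0.25 in fasted birds (adjusted p = 0.0226) and BAK1, which permeabilises mitochondria, at 6.33 ± 0.33 in insulin-neutralized and 7.02 ± 0.31 in fasted birds (adjusted p = 0.0424). The MCL1 call was lost on leaving out insulin-neutralized bird 1, 4 or 5 or fasted bird 3, 4 or 5 (highest adjusted p 0.0584) and that of BAK1 on leaving out any insulin-neutralized bird, any fasted bird but 5 or fed bird 2 or 3 (highest adjusted p 0.091). Without insulin-neutralized bird 1 and fasted bird 5 together, BAK1 was called and MCL1 was not. Of the 2 probe sets of BAK1, 1 was called.

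Of 42 chaperones and chaperonin subunits 2 (4.76%) were lower, against 2.67% of all genes. HSPA2, an HSP70 family member, ranged over 12.73 to 13.36 in insulin-neutralized birds, against 13.45 to 14.05 in fasted birds (log2 difference -0.70, SE 0.14, adjusted p = 0.0144). HSPA8, the constitutive HSP70, ranged over 13.65 to 13.94 in insulin-neutralized birds, against 14.06 to 14.39 in fasted birds (adjusted p = 0.0212), a call that was lost on leaving out insulin-neutralized bird 1, 4 or 5 or fasted bird 4 (highest adjusted p 0.0581). HSPA5, the main chaperone of the endoplasmic reticulum, was at 13.72 ± 0.17 in insulin-neutralized, 13.73 ± 0.23 in fasted and 14.53 ± 0.24 in fed birds, and AHSA1, an activator of HSP90, at 10.97 ± 0.10 in insulin-neutralized, 11.10 ± 0.12 in fasted and 11.66 ± 0.11 in fed birds. These 2 differed by -0.01 and -0.13 between insulin-neutralized and fasted birds (adjusted p = 0.982 and 0.464). SEC24D, a coat protein of vesicles leaving the endoplasmic reticulum, was higher, at 11.37 ± 0.12 in insulin-neutralized and 10.80 ± 0.14 in fasted birds (adjusted p = 0.00463), the only call among 35 genes of that compartment (2.86%, against 1.69% of all genes called higher).

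Amino acid genes gave few calls, 6.45% of 31 breakdown genes and 6.25% of 16 synthesis and response genes, against 4.36% of all genes. GLDC, which breaks down glycine, was 2.37-fold higher at 7.86 to 8.11 in insulin-neutralized birds, against 6.45 to 7.55 in fasted birds (log2 difference 1.25, SE 0.27, adjusted p = 0.0201), BCAT1, a transaminase of branched-chain amino acids, was lower (log2 difference -0.87), and ALDH18A1, which starts proline synthesis, was higher by 0.78. ASNS, asparagine synthetase, a target of the amino acid response, differed by 0.08 (adjusted p = 0.929), and SLC38A2, an amino acid transporter induced by the same response, by 0.05 (adjusted p = 0.936). The GLDC call was lost on leaving out insulin-neutralized bird 1 or fasted bird 4 or 5 (highest adjusted p 0.0528), that of BCAT1 on leaving out any insulin-neutralized bird but 2 or any fasted bird but 2 (highest adjusted p 0.0827) and that of ALDH18A1 on leaving out insulin-neutralized bird 3, 4 or 5 or fasted bird 4 or 5 (highest adjusted p 0.0595). No gene was called among 49 of the respiratory chain, 61 ribosomal proteins, 21 aminoacyl-tRNA synthetases, 29 antioxidant enzymes, 26 of mTOR and growth signalling and 16 amino acid transporters. Their medians lay between -0.02 and 0.05. Ribosome biogenesis gave 4 lower genes of 47 (8.51%, against 2.67% of all genes). The count was 0 without insulin-neutralized bird 3 and also without insulin-neutralized bird 1 and fasted bird 5 together.

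**Figure D4:**
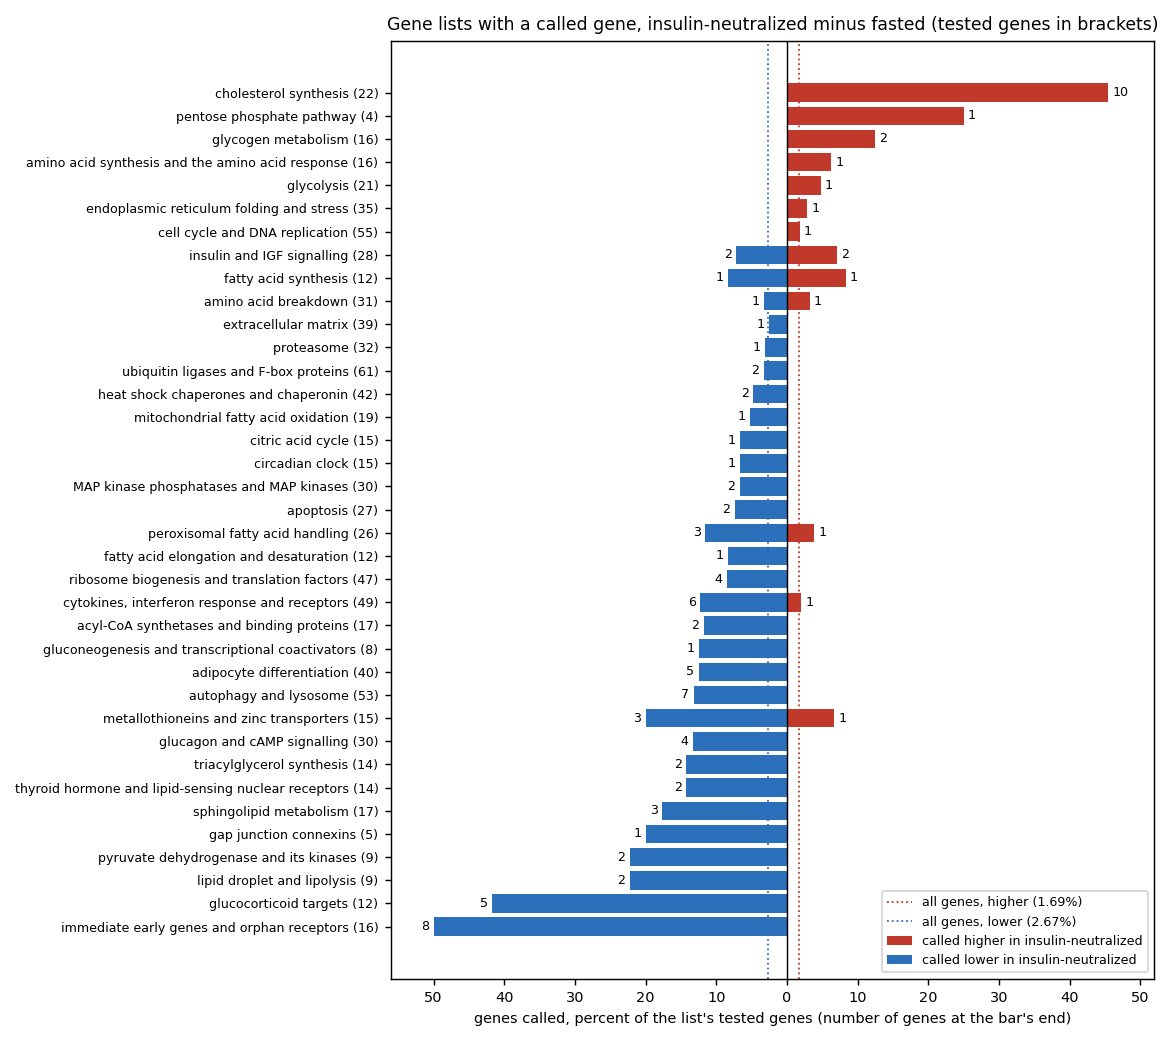
Genes called higher (red, to the right) and lower (blue, to the left) in insulin-neutralized than in fasted birds, as a percent of the tested genes of each list (horizontal axis), for the lists with at least 1 call. The number of genes stands at the end of each bar, and dotted lines mark 1.69% and 2.67%, the shares of all 9243 genes, beside 10 of 22 genes for cholesterol synthesis and 8 of 16 for immediate early genes and orphan receptors.

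Among the genes with the largest differences outside these lists, most were lower. PHACTR1, an actin and phosphatase regulator, had levels of 3.13, 3.96, 3.08, 2.19 and 3.96 in insulin-neutralized birds, against 6.04, 4.32, 6.45, 7.12 and 6.05 in fasted birds (log2 difference -2.73, SE 0.45, adjusted p = 0.00395), with 1 insulin-neutralized bird at the floor. SLC24A2, a sodium, potassium and calcium exchanger, ranged over 4.48 to 5.58 in insulin-neutralized birds, against 6.05 to 8.65 in fasted birds (log2 difference -2.57, SE 0.47, adjusted p = 0.00746), with an adjusted p of 0.055 without insulin-neutralized bird 1 and fasted bird 5. For SLC24A2 the lowest value, 4.48, was shared by insulin-neutralized bird 3 and fed birds 1 and 4. For PHACTR1 insulin-neutralized birds 2 and 5 and fed birds 3 and 5 shared the same value, 3.96. The sizes of these differences therefore give only bounds. EAF2, a transcription elongation factor, ranged over 7.999 to 8.48 in insulin-neutralized birds, against 9.51 to 11.82 in fasted birds (log2 difference -2.44, SE 0.37, adjusted p = 0.00256). COQ10B, a coenzyme Q binding protein of mitochondria, had levels of 9.78, 10.31, 10.05, 10.27 and 9.71 in insulin-neutralized birds, against 11.77, 13.19, 12.42, 12.78 and 11.91 in fasted birds (log2 difference -2.39, SE 0.24, adjusted p = 1.53e-04). NARF, USP44 and FAM174B were lower, with log2 differences of -2.60, -2.21 and -2.17 (adjusted p = 0.00821, 0.00176 and 1.92e-04), and of the 4 probe sets of NARF 3 were called and 1 had the opposite sign.

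Among the largest increases, NPY4R, a receptor for pancreatic polypeptide, ranged over 7.39 to 8.09 in insulin-neutralized birds, against 3.80 to 6.57 in fasted birds (log2 difference 2.22, SE 0.43, adjusted p = 0.011). RTN4R, the Nogo receptor, ranged over 5.04 to 6.23 in insulin-neutralized birds, against 2.21 to 4.57 in fasted birds (log2 difference 1.82, SE 0.37, adjusted p = 0.0147), and fasted bird 2 lay close to the floor. FGFR3, a fibroblast growth factor receptor, had levels of 9.30, 8.68, 9.45, 8.83 and 9.17 in insulin-neutralized birds, against 7.19, 8.55, 7.74, 6.89 and 7.18 in fasted birds (log2 difference 1.58, SE 0.28, adjusted p = 0.00598, in 2 of 3 probe sets). ACTA1, skeletal muscle actin, was higher, at 10.09 to 11.20 in insulin-neutralized birds, against 9.15 to 9.54 in fasted birds (log2 difference 1.25, SE 0.25, adjusted p = 0.0139), beside the wider range of muscle markers given above. Without insulin-neutralized bird 1 and fasted bird 5 its adjusted p was 0.0673, and that of RTN4R 0.0719. SH3TC1 was higher by 2.26, a call that was lost on leaving out insulin-neutralized bird 1 or fasted bird 5 (highest adjusted p 0.0524). PBX3, a homeodomain partner of HOX proteins that was among the genes checked by RT-PCR in the study, was higher, at 10.20 to 10.39 in insulin-neutralized birds, against 9.24 to 9.71 in fasted birds (log2 difference 0.75, SE 0.09, adjusted p = 5.03e-04), while SESN1, a brake on mTOR, differed by -0.17 (adjusted p = 0.44). For the same comparison, the study's RT-PCR found PBX3 higher and DUSP5, EGR1, PDK4, BNIP3 and AGTR1 lower in insulin-neutralized birds. It gave no significant difference for FBXO8, NAB1, IL10RB and SESN1, nor for CTSL2, which is CTSV here.

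Some genes differed in insulin-neutralized birds from both other groups, the comparison with fed birds sharing the insulin-neutralized arrays. Those given are examples, and how common each pattern is among all genes was not counted. PDK4 averaged 13.45 ± 0.49 in insulin-neutralized, 14.74 ± 0.18 in fasted and 10.63 ± 0.81 in fed birds, higher than in fed birds by 2.82 on the log2 scale (adjusted p = 0.00375). AGTR1 averaged 10.60 ± 0.26 in insulin-neutralized, 11.61 ± 0.25 in fasted and 9.56 ± 0.41 in fed birds (insulin-neutralized minus fed 1.04, adjusted p = 0.0352). FBXO8 averaged 9.75 ± 0.25 in insulin-neutralized, 10.68 ± 0.20 in fasted and 8.96 ± 0.22 in fed birds (insulin-neutralized minus fed 0.79, adjusted p = 0.0338). PSME4 and CTSV were higher than in fed birds by 0.93 and 0.63 (adjusted p = 0.0292 and 0.0197), and IFNAR1 by 0.55 (adjusted p = 0.0476). In these 6 genes the insulin-neutralized mean lay between the other two. PPP1R3B also lay between them, below fed birds (log2 difference -0.71, adjusted p = 0.0352), and so did ACBD5, above fed birds (log2 difference 0.77, adjusted p = 0.0359).

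HSPA8 and BAK1 had another pattern, with insulin-neutralized birds below both groups. HSPA8 averaged 13.79 ± 0.11 in insulin-neutralized, 14.21 ± 0.14 in fasted and 14.31 ± 0.13 in fed birds (insulin-neutralized minus fed -0.51, adjusted p = 0.0338). BAK1 averaged 6.33 ± 0.33 in insulin-neutralized, 7.02 ± 0.31 in fasted and 7.20 ± 0.20 in fed birds (insulin-neutralized minus fed -0.87, adjusted p = 0.047). Between fasted and fed birds the adjusted p was 0.591 for HSPA8 and 0.571 for BAK1. The calls of PDK4, CTSV, ACBD5, HSPA8 and BAK1 against fasted birds depended on single birds as given above. How the calls against fed birds depend on single birds was not tested.

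**Figure D5:**
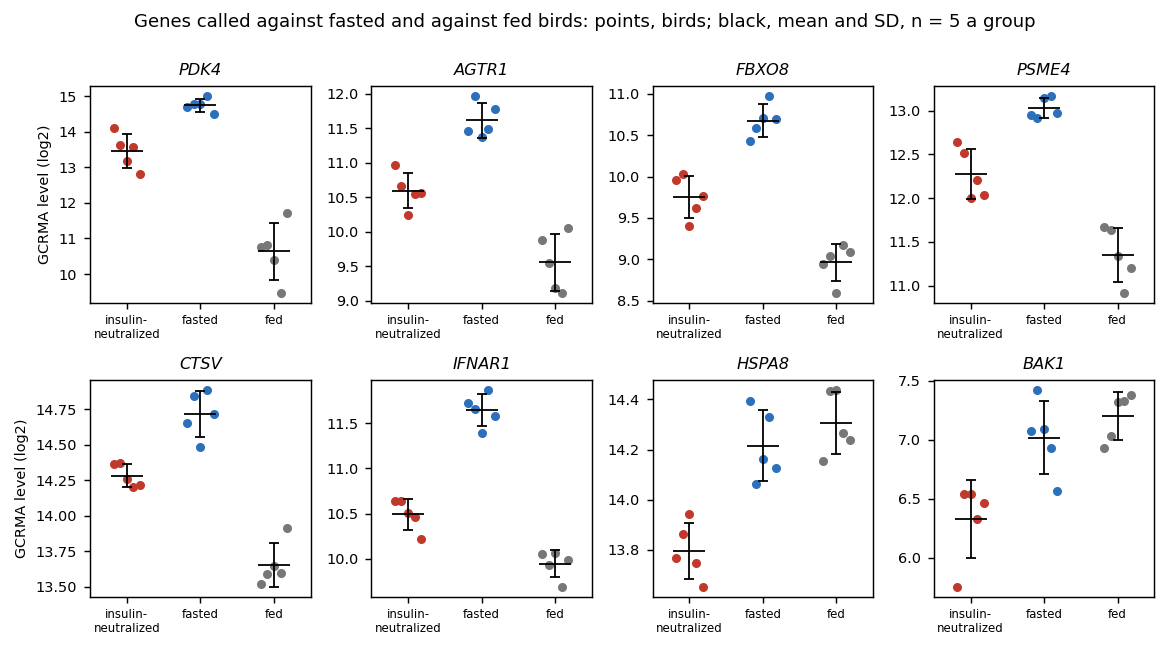
Levels of 8 genes (vertical axes, GCRMA, log2) called between insulin-neutralized and fasted and between insulin-neutralized and fed birds, 1 point per bird, with the mean and SD of 5 birds in black. In PDK4, AGTR1, FBXO8, PSME4, CTSV and IFNAR1 the insulin-neutralized birds average between fasted and fed birds, and in HSPA8 and BAK1 below both.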

How the data were processed

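Each of the 15 birds gave 1 Affymetrix GeneChip Chicken Genome Array. The authors deposited log2 values per probe set, background-corrected and normalized by GCRMA (R 2.9.0, RMA and GCRMA are named in the submitters' notes). Groups come from the sample labels. The members and gene lists were chosen with earlier results of these data known.

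From 38535 probe sets, 96 controls and 19827 probe sets below 3 on at least 5 arrays were left out, following the methods. Limma 3.58.1 in R 4.3.3 fitted 3 group means to the 15 arrays (12 residual degrees of freedom, prior 2.07), and a call is a Benjamini-Hochberg adjusted p under 0.05 over 18612 probe sets, the p given throughout. Platform annotation gives 27178 probe sets 1 symbol and 177 several, and 11180 are unnamed here. A gene is represented by its kept probe set with the highest mean, and 25 members of the 43 gene and 13 marker lists were matched through a synonym.

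Named genes are the 15 largest increases and 15 largest decreases without overlap between birds, up to 5 called members per list, key genes of the lists and the genes the study measured by RT-PCR. Like the lists, the key genes were marked with earlier results of these data known. Outside this rule, AACS, MSMO1, HSD17B7, STARD4, BTG2, CCN2, CISH, TLR4, MAP1LC3A, SQSTM1, GCG and GCGR were chosen after their values were seen. Of 116 called genes named, 48 had several probe sets, 25 of them called alike throughout and 5 with a probe set of opposite sign. The fit was tested on simulated data. The alternatives were other filters, scalings, weights, moderation and adjustment, a fit of 2 groups, a replicate block and birds left out. Arrays give no counts, so the precision is limited by their number, and the labels give 1 bird per array. Promoter sequences were not used here. Figures were drawn with matplotlib 3.10.9.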

Additional observations from a re-analysis of the deposited data

Results flagged for a closer look

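Among the genes named in the text, 147 genes in 3 groups of 5 birds (441 sets of values), 1 bird stood far from the other 4 in 24 sets, by a gap of more than 0.71 of the group's range. Chance alone sets about 1 in 20 groups apart in this way. The values are log2 levels, with the range of the other 4 birds beside each.

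In insulin-neutralized birds, bird 4 was low for ACACA at 9.12 against 10.08 to 10.29 in the others, for CEBPA at 7.31 against 8.44 to 8.66 and for ADAMTS1 at 4.83 against 5.52 to 5.75. The same bird was high for ERRFI1 at 9.58 against 8.94 to 9.12. Bird 1 was low for BAK1 at 5.76 against 6.33 to 6.54 and high for CPT1A at 3.86 against 2.82 to 3.08. Bird 2 was high for CERS6 at 3.21 against at most 3.02 and low for TLR4 at 3.70 against 4.20 to 4.24. Bird 5 was low for SLC38A2 at 12.25 against 12.87 to 13.01.

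In fasted birds, bird 3 was high for ACLY at 10.55 against 10.17 to 10.27, for GLDC at 7.55 against 6.45 to 6.65 and for HK1 at 9.85 against 9.39 to 9.46. Bird 2 was high for HSPA5 at 14.13 against 13.52 to 13.69 and low for RTN4R at 2.21 against 3.94 to 4.57. Bird 4 was low for IRS2 at 8.34 against 9.10 to 9.39, and bird 1 was low for MAP1LC3A at 12.27 against 12.57 to 12.65.

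In fed birds, bird 4 was high for FZD2 at 9.80 against 8.87 to 8.89 and for PIK3R3 at 8.01 against 7.39 to 7.51, and low for PHACTR1 at 3.09 against 3.87 to 3.97. Bird 5 was low for HMGCS1 at 7.76 against 9.42 to 9.50 and for EAF2 at 7.41 against 8.46 to 8.86. Bird 2 was low for GABARAPL1 at 3.18 against 3.92 to 4.10, high for USP44 at 6.29 against 5.77 to 5.88 and high for NAB1 at 5.14, where the other 4 fed birds all lay at 5.06.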

How the results depend on the processing

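The analysis as reported called 756 probe sets, 286 higher and 470 lower in insulin-neutralized birds. With no filter on low values 466 were called (163 higher, 303 lower), and with array weights 1789 (747 higher, 1042 lower). With 1 probe set per gene, and so fewer tests, the counts were 455, 181 and 274. A fit of the insulin-neutralized and fasted arrays alone called 1038, of which 435 were higher, yet 13 genes named in the text lost their call in it, among them PLIN2, CIDEC, FOXO1, HSD17B7, BAK1, ERRFI1, TLR4, TWIST2 and SIK2. Without fed birds 4 and 5 the counts were 1513, 671 and 842, and without insulin-neutralized bird 1 and fasted bird 5, chosen after seeing the data for their liver transcripts, 335, 83 and 252. The cause of these shifts was not tested where fewer tests or arrays do not give it. Leaving out 1 bird gave 447 to 933 probe sets, 126 to 373 higher and 299 to 564 lower, with the lowest total without insulin-neutralized bird 3 and the highest without fed bird 5. The other filters, scalings, moderation and joint adjustment stayed within 1.5 times of each count.

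No called gene named in the text changed sign under an alternative. Of 116 such genes, 62 kept their call without insulin-neutralized bird 1 and fasted bird 5 and 54 lost it, and 38 lost it with no filter. Of 3136 counts of list members under alternatives, 366 moved beyond 1.5 times. The replicate block, a fit with the bird number as a term, called 638 (218 higher, 420 lower), and 20 genes named in the text lost their call. The numbers do not pair the birds: deviations from the group mean of equally numbered insulin-neutralized and fasted birds correlated at 0.15, -0.39, 0.06, -0.26 and 0.13, and these samples share only a number. The number of birds limits what could be called, and levels near the floor of 2.18 or near the lowest that a probe set showed give only bounds.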

Other observations

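The genes below were chosen after their values were seen. Beside the sterol synthesis genes, 2 genes that handle cholesterol after its synthesis were lower in insulin-neutralized birds. CH25H, which makes 25-hydroxycholesterol, had levels of 7.27, 7.66, 7.63, 7.08 and 7.39 in insulin-neutralized birds, against 9.11, 8.48, 8.56, 8.81 and 8.94 in fasted birds (log2 difference -1.37, SE 0.16, adjusted p = 4e-04). SOAT1, which esterifies cholesterol for storage, ranged over 10.35 to 10.70 in insulin-neutralized birds, against 10.92 to 11.67 in fasted birds (log2 difference -0.74, SE 0.14, adjusted p = 0.0098). Fed birds lay at 7.49 ± 0.27 for CH25H and 10.53 ± 0.17 for SOAT1, close to the insulin-neutralized birds.

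Further genes were called in either direction. ADAMTS1, a protease of matrix proteoglycans, was 3.4-fold lower at 4.83 to 5.75 in insulin-neutralized birds, against 6.80 to 7.75 in fasted birds (log2 difference -1.77, SE 0.22, adjusted p = 5.67e-04). TIMP3, an inhibitor of matrix metalloproteinases, lay at 12.34 ± 0.26 in insulin-neutralized and 13.68 ± 0.78 in fasted birds (adjusted p = 0.0282), and was the only one called of 39 matrix genes (2.56%, against 2.67% of all genes called lower). SMOX, spermine oxidase, lay at 7.14 ± 0.32 in insulin-neutralized and 8.70 ± 0.31 in fasted birds (adjusted p = 0.00463). FZD8 and FZD2, receptors for Wnt proteins, were higher, with log2 differences of 0.83 and 0.78 (adjusted p = 0.00259 and 0.023), and TWIST2, a transcription factor of mesenchymal cells, was higher by 0.83 (adjusted p = 0.0282). The FZD2 call was lost on leaving out insulin-neutralized bird 1 or 5 or fasted bird 1, 2 or 4 (highest adjusted p 0.0615), that of TWIST2 on leaving out any insulin-neutralized bird but 1 or fasted bird 4 or 5 (highest adjusted p 0.0724) and that of TIMP3 on leaving out any insulin-neutralized bird but 5 or fasted bird 4 (highest adjusted p 0.0739).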
